A study of Mus musculus with 80 samples.

Results

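The comparison was between livers of wild-type (WT) and PPARγ-null (KO) mice that had all been fed a high-fat diet (HFD), and it used 10 of the 80 samples of the series, 5 of each genotype. Its members were the chromatin immunoprecipitation (ChIP-Seq) libraries whose titles give RXR as the target, HFD as the diet and WT or KO as the genotype. The WT libraries came from C57BL6/J mice bought from a supplier. The KO libraries came from mice in which floxed Pparg was deleted by Cre recombinase under the albumin promoter, which is active in hepatocytes, so other cells of the liver keep the gene. The WT mice were not Cre-negative littermates of the KO mice. All 10 animals were male, were 5 months old and had been fed a diet with 60% of its energy as fat for 12 weeks, and each library came from the liver of a separate animal. The labels name an anti-RXR antibody that recognizes RXRα, RXRβ and RXRγ for the WT libraries, while those of the KO libraries on HFD name none. The methods of the study give the same antibody for its RXR ChIP-Seq, which covered both genotypes.

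Retinoid X receptors (RXR) are nuclear receptors that bind DNA as the shared partner of other nuclear receptors, among them the peroxisome proliferator-activated receptors. PPARγ with RXR recognizes a direct repeat of AGGTCA with 1 base between the repeats (DR1) and directs lipid uptake and storage in fat cells. In a steatotic liver PPARγ is made at higher levels than in a lean one, and hepatocytes then express genes of fat storage. Loss of PPARγ removes one of many partners that RXR has in hepatocytes, where PPARα, LXR, FXR and others also pair with it. Binding of such receptors is usually found in introns, between genes and near promoters, and seldom over the body of exons.

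The deposited peak tables list, for each liver against its own input DNA, the intervals in which ChIP tags exceeded the local background. The cutoff differed between the genotypes. The WT tables were called at a p-value of 0.001 and the KO tables at a q-value of 0.05, so that intervals were kept only where −log10 of the q-value was at least 1.301 (q of at most 0.05). This left 41.7% to 61.1% of the intervals of the WT tables and 100% of those of the KO tables. In the WT tables the lowest value kept lay between 1.32 and 1.36 and the highest value left out between 1.27 and 1.30. Intervals of the 10 livers that overlapped were merged, which gave 53665 sites, of which 42360 touched an annotated exon (exonic sites) and 11305 did not. Exons make up 4.70% of chromosomes 1 to 19, X and Y.

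The KO libraries were shallower than the WT libraries and held shorter fragments. The number of ChIP tags kept after removal of tags at the same position was 2.15 to 4.26 Mtags (mega-tags) across the WT libraries, against 0.651 to 0.924 Mtags across the KO libraries, and the groups did not overlap (0.268-fold, adjusted p = 0.0132, exact two-sided permutation test over the 252 assignments of 10 livers, adjusted over 15 measures per liver). Kept input tags ranged from 4.57 to 7.97 Mtags for WT, from 4.30 to 6.55 Mtags for KO, and did not differ beyond their spread (adjusted p = 0.841, exact permutation test). The fragment length in the headers was 227 to 249 bp in WT and 119 to 164 bp in KO. Intervals were listed on fewer tags in KO livers, with a lowest pileup (tags stacked at the summit) of 2 to 3 tags, against 5 to 6 in WT. Depth and fragment length cannot be told apart from genotype here, and their part in the results that follow was not tested. The exonic intervals of the KO libraries, described further on, lay often on genes of neurons and seldom on markers of hepatocytes, so that they went against the labelled tissue. Whether the KO values are RXR binding in liver was not tested, and this holds for every KO minus WT difference given here. Single libraries stood apart in each group. WT 4 was the deepest library and had the fewest intervals, and KO 5 was the deepest KO library and had the fewest intervals of its group.

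The libraries labelled KO had many more RXR ChIP intervals than WT livers, and nearly all of the surplus lay on exons. The number of intervals was 644, 514, 846, 261 and 726 in WT 1 to 5 and 23779, 21071, 28922, 19848 and 8311 in KO 1 to 5. Every KO liver was above every WT liver, by 33.9-fold in the geometric mean (adjusted p = 0.0132, exact permutation test). Intervals on exons numbered 29, 21, 32, 15 and 45 in WT and 21533, 18720, 25542, 17462 and 8039 in KO livers. Their mean was 28.4 ± 11.4 (SD, n = 5) in WT and 18259 ± 6501 (SD, n = 5) in KO livers, a difference of 9.27 on the log2(number + 1) scale (618-fold, adjusted p = 0.0132, exact permutation test), and 0.00794 was the smallest unadjusted p that 5 against 5 livers allow.

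The share of intervals on exons separated the genotypes without regard to the total. It was 4.50%, 4.09%, 3.78%, 5.75% and 6.20% in WT 1 to 5 and 90.6%, 88.8%, 88.3%, 88.0% and 96.7% in KO 1 to 5. The difference was 85.6 percentage points (adjusted p = 0.0132, exact permutation test). KO intervals also followed the exons closely. Of all bases in exonic intervals, 88.5% ± 2.27 (SD, n = 5) lay within exons in KO livers and 39.4% ± 6.83 (SD, n = 5) in WT livers (adjusted p = 0.0132, exact permutation test). The strongest summit of an interval fell in coding sequence in 42.6% to 49.4% and in an untranslated exon region in 30.8% to 38.7% of KO intervals, whereas it fell outside every exon in 96.7% to 98.1% of WT intervals.

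**Figure D1:**
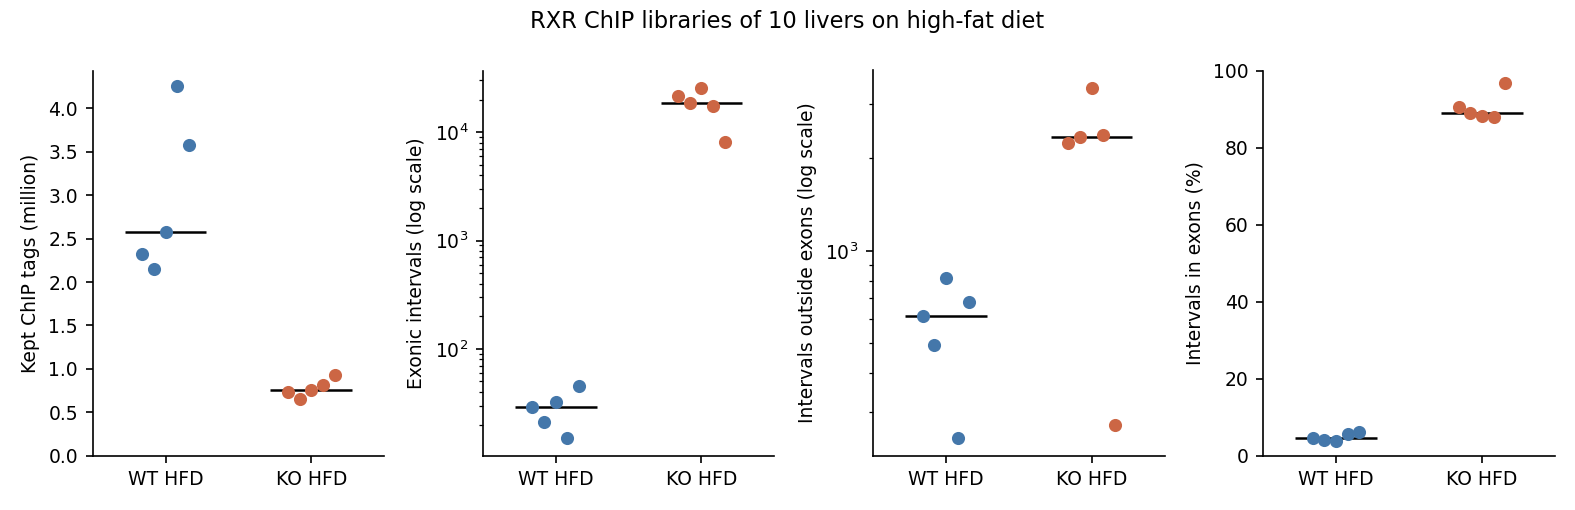
Kept ChIP tags (Mtags), number of exonic intervals, number of intervals outside exons and percentage of intervals on exons in each of the 5 WT and 5 KO livers on HFD, with points for livers and bars for group medians. KO livers have 0.651 to 0.924 Mtags against 2.15 to 4.26 Mtags in WT, and 88.0% to 96.7% of their intervals on exons against 3.78% to 6.20%.

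Outside exons the difference was smaller and the groups overlapped. The number of intervals was 615, 493, 814, 246 and 681 in WT 1 to 5 and 2246, 2351, 3380, 2386 and 272 in KO 1 to 5. KO 5 lay within the WT range and the other 4 KO livers lay above it. The difference was 1.62 on the log2(number + 1) scale (3.08-fold, adjusted p = 0.0496, exact permutation test), and it was no longer past the threshold when any of the other 9 livers was left out (adjusted p of 0.0694 to 0.149), while without KO 5 it was 2.27 (adjusted p = 0.0119, exact permutation test). Divided by the number of kept ChIP tags it was 3.52 on the log2 scale (adjusted p = 0.0238, exact permutation test).

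Most KO intervals outside exons rested on very few tags. A pileup of 3 tags or fewer was listed for 77.0%, 61.6%, 80.3%, 80.2% and 13.2% of them in KO 1 to 5 and for 0% in each WT liver. With a pileup of at least 6 tags required in both genotypes, a setting added after seeing the data, KO livers had 93 to 400 intervals outside exons (median 153) and WT livers 237 to 681 (median 277). The direction then turned, by −0.97 on the log2 scale (adjusted p = 0.0893, exact permutation test). With at least 10 tags it was again higher in KO livers, by 1.14 (adjusted p = 0.0397, exact permutation test). The exonic difference kept its direction at both levels, at 7.76 with 6 tags and 6.33 with 10 tags.

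**Figure D2:**
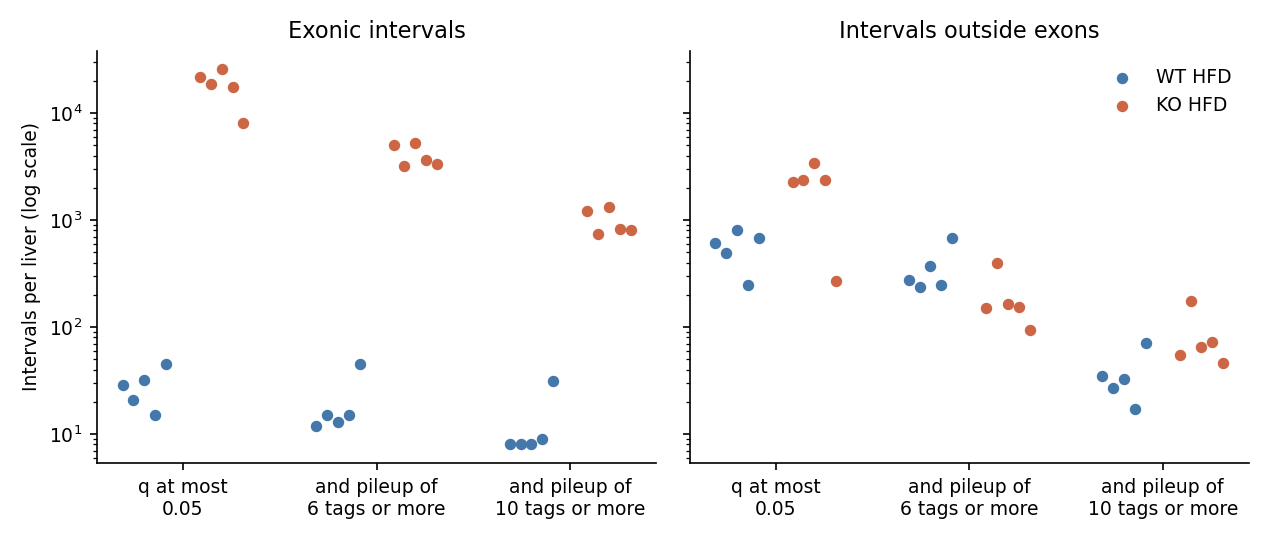
Number of intervals per liver on exons and outside exons (log axis) when only the q-value is used, and when a pileup of at least 6 or at least 10 tags is also required, with a point for each WT or KO liver. The exonic counts of the genotypes stay apart at each level, while outside exons the KO medians are above, below and above the WT medians in turn.

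Intervals outside exons were narrower in KO livers, lay nearer to transcription starts and had a slightly lower median fold enrichment. Their median width was 239 ± 9.76 bp (SD, n = 5) in WT and 154 ± 23.1 bp (SD, n = 5) in KO livers (adjusted p = 0.0132, exact permutation test), in the same direction as the fragment length. The share within 1 kb of a transcription start was 1.95% ± 0.360 in WT and 7.84% ± 1.0 in KO livers (SD, n = 5 each, adjusted p = 0.0132, exact permutation test). The fold enrichment, the deposited ratio of ChIP tags to local background at the summit, had a median of 4.64 ± 0.131 in WT and 3.95 ± 0.393 in KO livers (SD, n = 5 each, adjusted p = 0.0433, exact permutation test). Median pileup was 5 to 7 tags in WT livers, 3 in KO 1 to 4 and 5 in KO 5, near the lowest pileup listed. These medians thus depend on the tags at which intervals could be listed. With −log10 q of at least 5 the difference did not pass the threshold. Among the 100 intervals of each liver with the highest −log10 q the direction turned, with KO livers higher by 0.74 on the log2 scale (adjusted p = 0.0119, exact permutation test). These were the top 100 of 246 to 814 intervals in a WT liver and of 272 to 3380 in a KO liver. Most KO lists were longer, which favoured that direction by construction. Median fold enrichment of exonic intervals was 3.46 ± 1.59 in WT and 4.55 ± 0.552 in KO livers (SD, n = 5 each), and the difference was within the spread (adjusted p = 0.306, exact permutation test).

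Exonic sites recurred across KO livers, while sites outside exons recurred in few livers of either genotype. Of the 42287 exonic sites of KO livers, 10654 were called in at least 3 of the 5 livers and 3466 in all 5. Of the 87 exonic sites of WT livers, 8 were called in at least 3 livers. Outside exons, 365 of 8646 KO sites and 25 of 2689 WT sites were called in at least 3 livers, and 90.3% of the KO sites and 96.5% of the WT sites were seen in a single liver. Without KO 5 the recurrent KO sites numbered 9867 on exons and 352 outside exons, and without WT 4 the recurrent WT sites numbered 8 and 24. A requirement of at least 6 tags lowered the recurrent KO sites to 2700 on exons and 101 outside exons and left 8 and 25 in WT.

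A given liver shared its sites with other livers of its own genotype to a very different degree on and outside exons. Between 63.0% and 92.4% of the exonic sites of a KO liver were also called in another KO liver. For sites outside exons this was 18.5% to 25.2% in KO 1 to 4 and 74.5% in KO 5, and 7.49% to 11.5% in the WT livers. Few sites were called in both genotypes, namely 14 on exons and 30 outside exons.

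**Figure D3:**
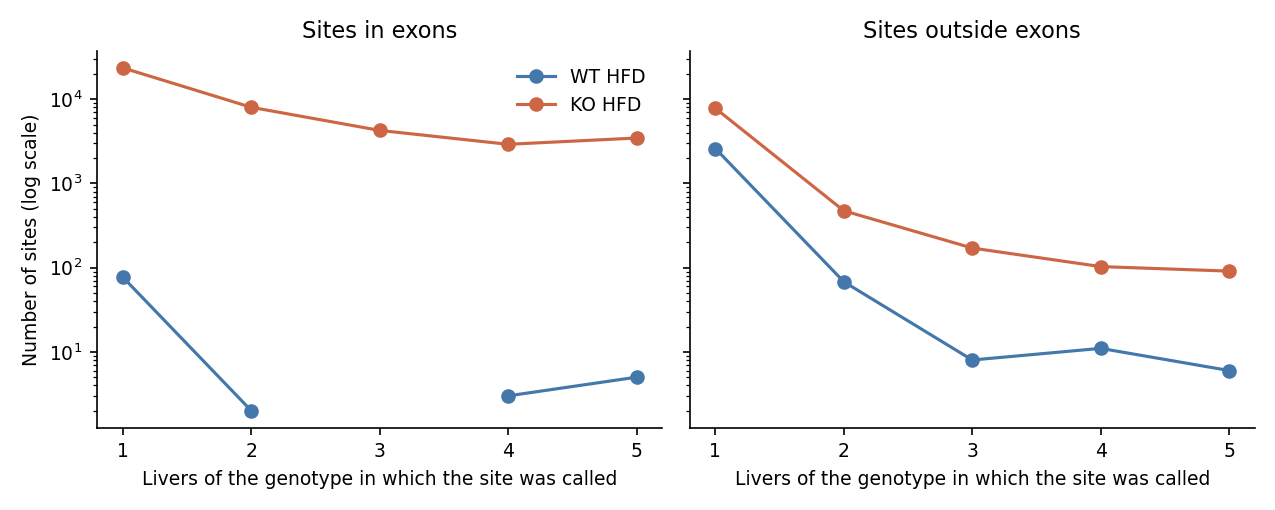
Number of sites (log axis) by the number of livers of a genotype in which they were called, on exons and outside exons, for WT and KO livers. Exonic KO sites fall from 23601 in 1 liver to 3466 in 5 livers, whereas WT sites outside exons fall from 2596 to 6, and no exonic WT site was called in exactly 3 livers.

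The number of livers in which a site was called was compared between the genotypes at the 6598 sites called in at least 4 of the 10 livers, with two-sided Fisher's exact test and Benjamini-Hochberg adjustment over all of them. A site could pass the requirement of 4 livers through KO livers alone and then had to be called, so the numbers describe where the calls fell and do not measure how many binding sites differ. KO livers were higher at 6561 sites, or 99.4% of those tested, and WT livers at 14, or 0.212%. On exons these numbers were 6379 and 2 of 6388 sites, and outside exons 182 and 12 of 210 sites. All 5 KO livers and none of the WT livers were called at 3458 exonic sites and 75 sites outside exons. The reverse held at 1 exonic site and 4 sites outside exons. The call of a site in 4 livers of one genotype and none of the other had an adjusted p of 0.0478 (Fisher's exact test), close to the threshold, and 3538 sites were called when sites in at least 3 livers were tested. None was called when all 53665 sites were tested (smallest adjusted p = 0.120, Fisher's exact test), although 6575 then had an unadjusted p under 0.05.

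The exonic sites with the highest fold enrichment in KO livers lay on tubulin, actin and other genes, several of them typical of neurons. At Tubb5, a β-tubulin (chr17:35833931-35836394, GRCm38, as all coordinates here), fold enrichment was 51.7, 60.5, 63.2, 63.6 and 44.8 in KO 1 to 5. At Tubb3, the β-tubulin of neurons (chr8:123420489-123421999), it was 56.7, 43.9, 54.7, 45.3 and 32.2. Neither site was listed in any WT liver. The other 6 sites of this ranking were on Actb, which encodes β-actin, Nnat, or neuronatin, Tuba1a, an α-tubulin of developing neurons, Basp1, a protein of growing axons, Ptms, or parathymosin, and Tmsb4x, an actin-binding thymosin. Their mean fold enrichment in KO livers was 48.5, 47.5, 47.1, 45.7, 43.0 and 42.5, and all were called in 5 KO and 0 WT livers. Tubulin and actin genes have close paralogs and pseudogenes, and how tags were divided between copies was not examined.

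At 6 of these 8 genes the recurrent KO sites covered a larger share of exon than of intron bases. Nnat (98.96% of exon and 100% of intron bases) and Tmsb4x (51.1% and 55.0%) were the exceptions, and at Actb (83.7% and 35.3%) and Tubb5 (89.8% and 23.3%) introns were also covered in part. At Basp1, recurrent sites covered 91.2% of exon bases and 0.495% of intron bases. At Cpe, carboxypeptidase E of neuroendocrine granules, they covered 79.2% of exon bases in 9 of 12 exons and 1.59% of intron bases, and at Sparcl1, a matrix protein of astrocytes, 78.5% and 3.08%. A gene with many exons showed the same direction. Flna, the actin cross-linker filamin A, carried 19 recurrent sites over 42 of its 45 exons, with 92.6% of exon bases and 26.5% of intron bases covered. Exons and the interval edges around them can touch the same short intron, so that introns of compact genes such as Eef2, elongation factor 2, reached 57.0% beside 98.7% of exon bases.

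Gene lists described which genes carried these exonic sites. A list gene was counted where an exonic site lay on it in at least 3 KO livers, which held for 3588 of 21911 protein-coding genes, or 16.4%. The counts are given beside that share without a test, since the lists were written with earlier results of these data known. In WT livers, 69 of the 21911 genes had an exonic site in any liver.

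Genes of neurons and neuroendocrine cells were covered far above the share of all genes, as were the translation factors and chaperones described next. Of 23 genes of the neuronal cytoskeleton 22 had such a site, of 25 genes of synapses and neurotransmission 23, and of 12 granins and neuropeptide-processing genes 10. Vamp2, a protein of synaptic vesicles, Sst, which encodes somatostatin, and Pcsk1n, an inhibitor of prohormone convertase, were the leading members next to Tubb3 and Cpe. Of 15 genes of myelin and astrocytes 5 had a site, among them Sparcl1 and Slc1a3, a glutamate transporter of astrocytes. In single KO livers the count was 20 to 22 for the neuronal cytoskeleton, 21 to 24 for synapses and 8 to 11 for the granins. The myelin and astrocyte list had a single gene with an exonic site in a WT liver, and the other 3 lists had none.

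For genes that most cells express the counts were 19 of 20 translation factors, 21 of 24 chaperones and proteasome subunits, 34 of 47 nuclear subunits of oxidative phosphorylation, 10 of 16 glycolytic enzymes and 25 of 46 cytosolic ribosomal proteins. Eef1a1 and Eef2, which carry the elongating ribosome, Hsp90ab1 and Hspa5, major chaperones of cytosol and endoplasmic reticulum, and Atp5b, a subunit of ATP synthase, led their lists. None of 12 replication-dependent histone genes, whose transcripts lack a poly(A) tail, had an exonic site in any KO liver. Of all 21911 protein-coding genes 8547 had one. The reason for the lack at histone genes was not tested.

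Genes that define the hepatocyte were rarely covered. Of 8 hepatocyte markers, which were Alb, Apoa1, Ttr, Trf, Serpina1c, Cps1, Pck1 and Cyp2e1, Ttr alone had an exonic site in a KO liver, and none had one in a WT liver. Of 35 genes of secreted liver proteins 2 had a site in at least 3 KO livers, Ttr and Apoe, and of 30 hepatocyte enzymes and transporters 1 did, Glul, glutamine synthetase. Ttr, a carrier of thyroid hormone, is also made by the choroid plexus, and Apoe and Glul are also made by astrocytes. Of the genes of other liver cells, 1 of 9 for endothelium (Stab1) and 7 of 13 for stellate cells and matrix (Sparc, Col4a1 and Fn1 among them) had a recurrent exonic site. None did of 10 for Kupffer cells and 7 for cholangiocytes. The Stab1 site also touched an exon of another gene, to which it was assigned. For other tissues the counts were 6 of 14 for smooth muscle, 1 of 12 for skeletal muscle and 0 for 14 genes of intestinal epithelium, 10 of exocrine pancreas and 9 of adipocytes. The hepatocyte lists thus lay below the 16.4% of all protein-coding genes, at 5.71% (secreted proteins) and 3.33% (enzymes and transporters). The 8 markers were too few to set beside that share. Genes of stellate cells and matrix went the other way, at 53.8%. The part of other cell types in the KO libraries was not tested. In a liver, fewer cells of a type and less signal per cell cannot be told apart.

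**Figure D4:**
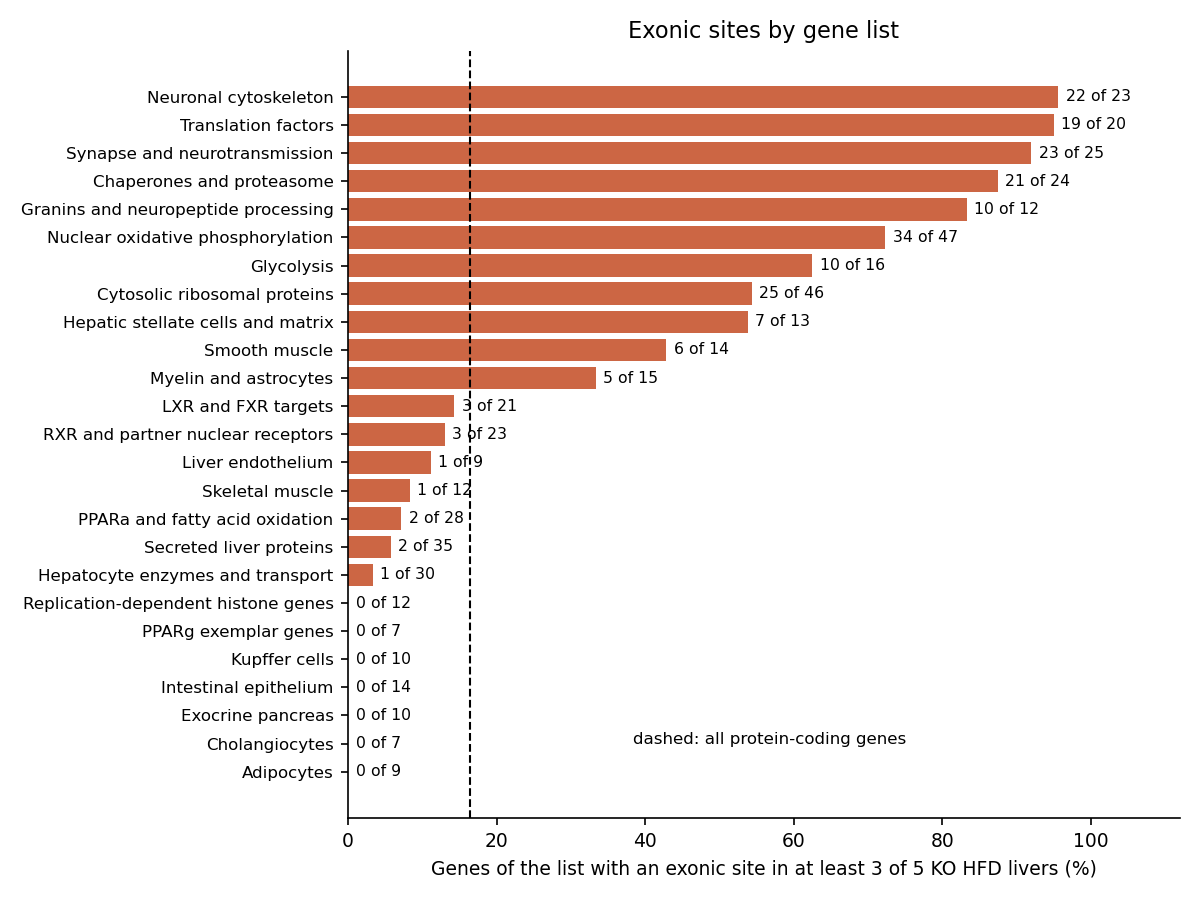
Percentage of the genes of each list with an exonic site in at least 3 of 5 KO livers, 1 bar per list, with a dashed line at the 16.4% of all protein-coding genes. Lists of neuronal genes, translation factors and chaperones lie far above the line, and the lists of hepatocyte, intestinal, pancreatic and adipocyte genes lie below it.

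Exonic sites of WT livers were few and of another kind. The site called in all 5 WT livers and no KO liver lay on Gm11168 (chr9:3005574-3008922), in a block at the start of chromosome 9 that is 97.3% repeat-masked, with a fold enrichment of 1.5 to 2.42 at pileups of 284 to 368 tags. Its summit lay outside exons. Sites called in all 5 livers of both genotypes lay on each side of it (chr9:2999894-3005436 and chr9:3009123-3038415). The next exonic site seen more often in WT was on Fcnaos, an antisense RNA gene on chr2:25628600-25629075, with a fold enrichment of 15.6, 6.02, 11.1 and 17.1 in WT 1, 2, 3 and 5. The other exonic sites named for WT, on 4930432E11Rik and Pth1r, the receptor of parathyroid hormone, were called in 2 WT and no KO livers each, and 69 further exonic sites were called in 1 WT liver and no KO liver. The exonic sites named as called in both genotypes were ranked by the mean of WT and KO fold enrichment, which high KO values also raised. They lay on Gm10800, Gm10801, Gm11168 and Gm10717, which are predicted genes in repeated blocks of chromosomes 2 and 9. At each of them fold enrichment was higher in KO than in WT on average. At Gm10800 (chr2:98666110-98667443) it was 1.97, 2.27, 2.06, 1.81 and 1.40 in WT and 6.30, 6.69, 4.92, 5.61 and 6.33 in KO livers, with no overlap.

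Outside exons, the 365 recurrent KO sites divided into 196 in introns, 8 within 5 kb upstream of a gene and 161 elsewhere. Of these, 95 (26.0%) overlapped an exon of the RefSeq annotation that the GENCODE annotation used here did not hold, and 135 lay within 1 kb of an annotated exon. Of the 25 recurrent WT sites 7 lay in introns and 18 elsewhere, and 21 of them were at least 50% repeat-masked, against 86 (23.6%) of the KO sites.

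The sequence under the summits is shown for 1 site called in KO livers alone, 2 called in both genotypes and 2 called in WT livers alone, because a repeated unit is seen in each of them. The windows are taken from the RefSeq GRCm38.p6 genome on the plus strand, 101 bases centred on the summit. Capitals mark runs of at least 2 GGAAT units or their reverse complement ATTCC, a unit also found in satellite DNA near primate centromeres. A second run of letters, AGGCTGAG or its reverse complement CTCAGCCT, was also counted at all sites, and it stands in the primate Alu repeat where the related mouse B1 repeat has AGGCAGAG. The site of KO livers lies 124685 bp from Pou4f1 (chr14:104336941-104337041). The sites of both genotypes lie 367977 bp from Arid1b (chr17:4626305-4626405) and 47469 bp from Sulf1 (chr1:12644758-12644858). The sites of WT livers lie in an intron of Mad1l1 (chr5:140204175-140204275) and in an intron of Shmt1 (chr11:60795800-60795900).
KO alone, near Pou4f1: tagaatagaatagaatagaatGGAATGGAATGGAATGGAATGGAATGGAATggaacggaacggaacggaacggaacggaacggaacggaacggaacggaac
both genotypes, near Arid1b: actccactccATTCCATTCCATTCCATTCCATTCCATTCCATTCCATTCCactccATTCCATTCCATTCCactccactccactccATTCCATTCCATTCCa
both genotypes, near Sulf1: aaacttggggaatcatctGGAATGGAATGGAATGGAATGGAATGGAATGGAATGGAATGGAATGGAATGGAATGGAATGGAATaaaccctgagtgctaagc
WT alone, Mad1l1: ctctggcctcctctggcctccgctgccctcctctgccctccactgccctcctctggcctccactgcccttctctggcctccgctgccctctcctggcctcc
WT alone, Shmt1: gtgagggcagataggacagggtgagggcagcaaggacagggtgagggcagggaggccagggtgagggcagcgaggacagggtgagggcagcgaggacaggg

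The named sites with these letters, which were ranked by fold enrichment, reached high values in KO livers. Near Pou4f1, which encodes a transcription factor of sensory neurons, fold enrichment was 17.6, 57.8, 32.3, 28.1 and 16.7 in KO 1 to 5 and the site was listed in no WT liver. In an intron of Lipc, hepatic lipase, it was 15.7, 39.8, 20.6, 15.5 and 12.3 in KO livers, and in an intron of Ybx3, a Y-box protein that binds nucleic acid, 9.27, 28.9, 11.3, 20.6 and 10.1, again with no WT liver. Of the 8 sites outside exons called in all 5 KO and no WT livers with the highest mean fold enrichment, 1 held tandem GGAAT and 5 held AGGCTGAG, and the others were at Copg2, a coat protein of transport vesicles (20.7 to 29.4), and near Traf2, an adaptor of TNF receptors (6.32 to 28).

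The 8 named sites called in both genotypes had the highest mean of WT and KO fold enrichment among 13 sites called in at least 2 livers of each. High KO values thus favoured their choice, and several were called in only 2 WT livers. At 6 of the 8 the fold enrichment of every KO liver was above that of every WT liver with an interval. Near Arid1b it was 5.42, 5.57, 13.1, 11.1 and 10.9 in WT 1 to 5 and 30.5, 120, 47.3, 65.6 and 27.3 in KO 1 to 5, and near Sulf1 it was 5.47 to 7.60 in WT and 13.3 to 47.9 in KO livers. In an intron of Acacb, which encodes an acetyl-CoA carboxylase, it was 4.74 in WT 1 and 4.95 in WT 4, with no interval in the other 3 WT livers, and 26.0 to 45.1 in KO livers. The ranges overlapped at Ano2, where KO 5 had 5.68 against 5.96 and 6.52 in WT 3 and 4, and near Olfr855, where KO 5 had 7.59 against 7.85 in WT 5. No test was run on the fold enrichment of single sites. Of the 30 sites outside exons called in both genotypes, 16 held tandem GGAAT, 4 held AGGCTGAG and 10 held neither.

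KO 2 was the highest KO liver at nearly all of these sites. Among sites outside exons called in all 5 KO livers, 29 held tandem GGAAT or AGGCTGAG, and KO 2 had the highest fold enrichment at 28 of them. The medians over these 29 sites were 9.27, 28.9, 11.8, 13.6 and 7.59 in KO 1 to 5. At the 62 such sites without these letters KO 2 was highest at 25, and at the 3466 exonic sites called in all 5 KO livers it was highest at 444.

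The letters were counted in the 101-base window of every site, on both strands, and in windows 10 kb away. The letters were chosen after the windows had been read, so the counts describe and do not test. Tandem GGAAT was present at 27 (7.40%) and AGGCTGAG at 45 (12.3%) of the 365 recurrent KO sites outside exons. Over all 11305 sites outside exons the shares were 0.363% and 2.32%, and 10 kb away from those 0.0354% and 1.06%. Of the 262 sites with AGGCTGAG 177 were called in a single KO liver and 7 in WT livers alone, and of the 41 with tandem GGAAT 3 were called in WT livers alone. The median fold enrichment at the recurrent KO sites was 7.18 with AGGCTGAG and 12.5 with tandem GGAAT. Both were rare at recurrent exonic KO sites, at 0.0563% and 1.37%. AGGCAGAG, the mouse B1 form, was present at 5.75% of the recurrent KO sites outside exons and at 3.64% of all sites outside exons.

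The named sites seen more often in WT livers lay in repeated sequence, mostly short tandem repeats, 4 of the 8 on the Y chromosome, and none of the 8 held either sequence. Near Gm28102 on the Y chromosome fold enrichment was 6.18, 4.40, 7.93, 6.27 and 3.63 in WT 1 to 5. The sites near Gm21996 and Gm33815, also on the Y chromosome, and in Mdga2, an adhesion protein of neurons, were called in all 5 WT livers at a fold enrichment of 1.62 to 3.74 and pileups of 35 to 152 tags. In Mad1l1, a protein of the spindle checkpoint, fold enrichment was 16.9, 4.0, 8.44 and 11.8 in WT 1, 2, 3 and 5, and in Shmt1, a serine hydroxymethyltransferase, 10.2, 6.91, 5.90 and 6.17 in WT 1, 3, 4 and 5. The remaining ones, in Lmntd1 and near Gm21860, were called in 4 WT livers at 3.53 to 6.16. No KO liver was called at any of these 8 sites.

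**Figure D5:**
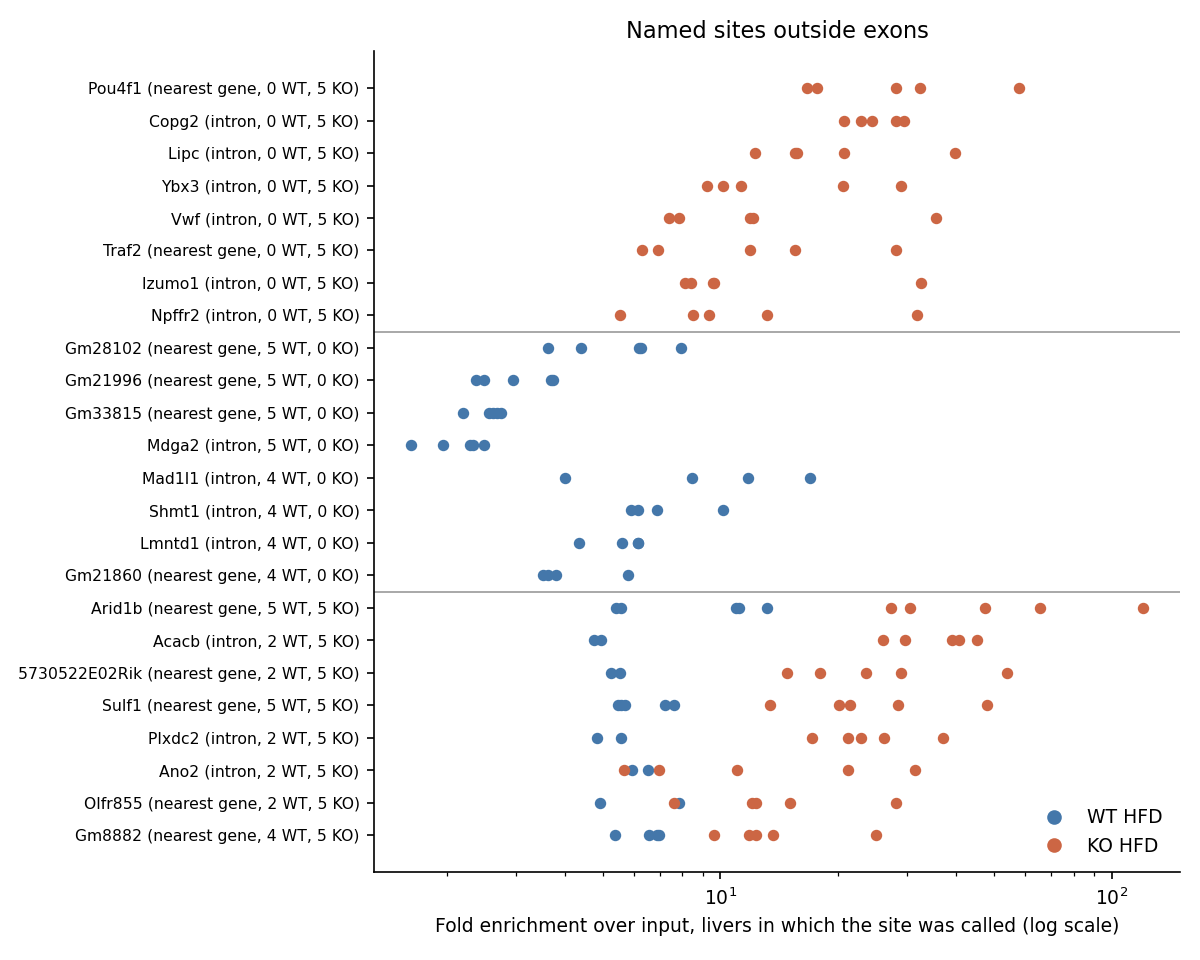
Fold enrichment (log axis) in each WT and KO liver at the 24 named sites outside exons, ordered by whether they were called more often in KO, more often in WT or in both genotypes, with a point for each liver with an interval. Near Arid1b the KO livers reach 27.3 to 120 against 5.42 to 13.1 in WT, and sites called more often in WT stay at or below 16.9.

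The DR1 motif, to which PPARγ and RXR bind together, had shares at the sites close to those nearby, and these were not tested. A match to AGGTCA, 1 base and AGGTCA with at most 2 mismatches, on either strand within 100 bp of the summit, was found at 7 of 365 recurrent KO sites outside exons (1.92%) and at 7 of the 365 windows 10 kb away. Over all KO sites outside exons the shares were 2.81% at the site and 2.67% away, and over all WT sites outside exons 2.08% and 1.93%. None of the 25 recurrent WT sites had a match. At recurrent exonic KO sites the shares were 2.76% and 2.81%. An exact AGGTCA was present in the 101-base window at 6.30% of recurrent KO sites outside exons, 4.93% of all sites outside exons and 6.96% of recurrent exonic KO sites. A match or its lack describes these windows and says nothing of the receptor.

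The deleted gene and the PPARγ target genes that the study used as examples had almost no sites in either genotype. Among all 21911 protein-coding genes, 69 had an exonic site in any WT liver and 3.87% had a site outside exons. In any KO liver, 8547 had an exonic site and 14.9% had a site outside exons. WT sites were thus rare at genes in general, and nothing is read from their lack at these genes. No liver had a site in Pparg or within 5 kb upstream of it (chr6:115360951-115490399), so that the peak tables do not check the deletion. The same held for Cd36, a fatty acid translocase, Cidec and Plin4, proteins of the lipid droplet, Fabp4, a fatty acid carrier of adipocytes, and Mogat1, an enzyme of triglyceride synthesis. Cav1, which encodes caveolin, had 1 exonic site in KO 1 alone (chr6:17339192-17339338, fold enrichment 3.78 on 3 tags). The region upstream of Cfd, which encodes adipsin, held 1 site (chr10:79888676-79888966) on an exon of the processed pseudogene Gm19810, with a fold enrichment of 10.4, 7.42, 9.60, 6.04 and 6.29 in KO 1 to 5 and none in WT. Apart from the site upstream of Cfd, too few sites were listed at these genes to compare the genotypes. The part of depth in this was not tested.

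The genes of RXR, its partners and their hepatic targets were counted in the same way. Of 23 genes of RXR and partner receptors 3 had an exonic site in at least 3 KO livers. These were Thra, thyroid hormone receptor α, with a fold enrichment of 12.8 to 24.3 at its strongest site and 11 recurrent sites, Nr2f1 (COUP-TFI, 5.30 to 9.0) and Nr2f2 (COUP-TFII, called in 4 KO livers). Rxra, Ppara, Nr1h3, which encodes LXRα, and Nr1h4, which encodes FXR, had none in any liver. Of 28 genes of PPARα and fatty acid oxidation 2 had one, among them Hadha, an enzyme of mitochondrial β-oxidation. Of 21 LXR and FXR targets 3 did, Fasn, Apoe and Pltp. The Pltp site also touched an exon of another gene, to which it was assigned. Fasn, fatty acid synthase, carried 13 recurrent exonic sites over 37 of its 42 exons. No gene of these 3 lists had an exonic site in any WT liver. The shares of the first and last of these lists were near the 16.4% of all protein-coding genes, and nothing is read from them.

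The genotype difference was compared with that on control diet to ask whether HFD altered it. On control diet exonic intervals numbered 29 to 315 in WT and 7145 to 21641 in KO livers (n = 5 each), again without overlap, and the labels of those KO libraries do name the RXR antibody. The KO minus WT difference in exonic intervals was 9.27 on HFD and 7.51 on control diet on the log2(number + 1) scale. The difference between diets of 1.76 did not pass adjustment over 3 measures (p = 0.0428, adjusted p = 0.128, exact permutation of the diet labels within genotype over 63504 assignments). In the same exact permutation test it passed with −log10 q of at least 5 (1.74, adjusted p = 0.00387) and with a pileup of at least 6 tags (1.86, adjusted p = 0.0355). With each of the 20 livers left out in turn, it passed only without HFD KO 5 (2.04, adjusted p = 0.0342, exact permutation test). Without any other liver it did not pass (adjusted p of 0.0559 to 0.267, exact permutation test). Outside exons the genotype difference was 1.62 on HFD and 1.28 on control diet, and these did not differ beyond the spread (difference 0.34, adjusted p = 0.824, exact permutation test). A single WT liver on control diet had 11161 intervals outside exons, against a group median of 268.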

How the data were processed

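RXR ChIP-Seq was measured in liver of 5 WT and 5 KO mice on HFD, with the 10 control-diet libraries used for the diet comparison alone. Per the labels and the study's methods, the authors sequenced single 50-base reads, aligned them to mm10 and called peaks per library against its own input with MACS2 2.1.1.20160309, keeping 1 tag per position. The deposited tables hold, per summit, pileup (signal, in tags), fold enrichment (ratio to local background) and −log10 p-values and q-values. No replicates were pooled. Tags per interval are not in the peak tables, so no count model was used.

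Summits of 1 interval were joined, with the value of the strongest summit. Intervals with −log10 q of at least 1.301 on chromosomes 1 to 19, X and Y were kept and overlapping ones merged across livers. Exons were those of GENCODE M21, and sequence came from RefSeq GRCm38.p6. Per-liver measures were compared by exact two-sided permutation with Benjamini-Hochberg adjustment (threshold 0.05), and livers called per site by Fisher's exact test, in Python 3.11.15 with scipy 1.17.1. The code was tested on simulated data. Depth in the headers limits which intervals could be called, and p-values measure spread between 5 livers per group.

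Named sites were the Pparg locus and 7 example genes, those that most favoured KO (8) or WT (4) on exons and KO (8) or WT (8) elsewhere by livers called, with ties by mean fold enrichment, the strongest called in both genotypes and up to 3 leading genes per list. The members and lists were chosen with earlier results of these data known. Alternatives were other cutoffs, exon definitions and overlaps, each liver left out, and a replicate block. Mitochondrial intervals and unplaced sequences were left out of the comparisons. Some items are not reported here.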

Additional observations from a re-analysis of the deposited data

Results flagged for a closer look

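Among 68 groups of 5 livers examined, 6 had a liver far from the other 4 by Dixon's criterion, which chance gives in about 1 in 20 groups. The median width of exonic intervals was 901 bp in WT 4, and the share of bases of exonic intervals within exons was 51.3% in WT 5. The median fold enrichment of intervals outside exons was 4.65 in KO 5, the highest of the KO livers. KO 2 stood above the other KO livers at 3 named sites, with a fold enrichment of 35.5 at Vwf, 32.5 at Izumo1 and 25.0 near Gm8882. The Vwf and Izumo1 sites lie in introns, of von Willebrand factor and of a sperm fusion protein. The third site lies 99666 bp from Gm8882, a predicted gene.

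The mitochondrial chromosome, which none of the comparisons used, held 11, 11, 8, 10 and 11 intervals in KO 1 to 5 and 0 in each WT liver.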

How the results depend on the processing

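The limits of the comparison are the lower depth and shorter fragments of the KO libraries, which cannot be told apart from genotype, the absence of an antibody from the labels of the KO libraries, the neuronal genes on their exonic intervals and the lack of tags per site. The cause of the changes below was not tested. Fewer sites tested or fewer livers lower a count by construction, and a choice of the highest intervals favours the longer list. The counts of all intervals and of exonic intervals and the share on exons kept direction and call under every alternative but the replicate block.

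The number of intervals outside exons fell short of the threshold at the header cutoffs (0.54 on the log2 scale, adjusted p = 0.510, exact permutation test) and at a fold enrichment of at least 5 (0.56, adjusted p = 0.256), and turned to −0.97 with at least 6 tags. Median fold enrichment outside exons was −0.036 with −log10 q of at least 5 (adjusted p = 0.697, exact permutation test) and turned to 0.74 for the 100 highest intervals of each liver. On exons it passed the threshold with −log10 q of at least 5 (1.65) and for the 500 highest intervals (2.21, adjusted p = 0.0119 each, exact permutation test). The choice of 500 kept all 15 to 45 exonic intervals of a WT liver but only the strongest of 8039 to 25542 in a KO liver. A higher KO median was thus favoured by construction, and nothing is read from it.

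Nothing in the labels pairs WT with KO livers. Same-numbered livers correlated by −0.0152 to 0.00208 over 19613 sites, and livers with other numbers by at most 0.0205. Only 14 exonic and 30 other sites were called in both genotypes, so these correlations could not show a pairing. With a replicate block, exact sign flips in 5 pairs cannot go under p = 0.0625. The differences were then 5.08 for all, 9.27 for exonic and 1.62 for other intervals and 85.6 points for the share (adjusted p = 0.0781, 0.0781, 0.156 and 0.0781, exact sign flips).

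Sites called by Fisher's exact test, which the required number of livers largely fixed, numbered 3538 (3459 exonic, 79 outside exons) among sites in at least 3 livers, 3548 (3462 and 86) in at least 5 livers and 0 (0 and 0) among all sites. They numbered 2459 (2388 and 71) with −log10 q of at least 5 and 1891 (1816 and 75) with at least 6 tags.

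Recurrent KO sites numbered 18686 on exons and 839 outside in at least 2 livers, 6385 and 194 in at least 4, 3667 and 121 with −log10 q of at least 5, and 2700 and 101 with at least 6 tags. Recurrent WT sites outside exons numbered 93 in at least 2 livers, 11 with −log10 q of at least 5 and 42 at the header cutoffs.

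The difference between diets passed the threshold with −log10 q of at least 5 for all intervals (1.83, adjusted p = 0.0109, exact permutation test) and exonic intervals (1.74), and with at least 6 tags for exonic intervals (1.86).

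With each liver left out in turn, the difference was 4.81 to 5.38 for all intervals, 9.07 to 9.54 for exonic intervals, 1.35 to 2.27 outside exons and 84.1 to 86.2 points for the share. Median fold enrichment differed by 0.28 to 0.70 on exons and by −0.30 to −0.22 outside. Sites called numbered 3731 to 6576 in all, 3627 to 6381 on exons and 101 to 195 outside, and fell most without KO 1 (3834), KO 2 (3967), KO 3 (3731) and KO 4 (4048). The diet difference was −0.11 to 1.41 for all, 1.28 to 2.13 for exonic and −0.63 to 1.03 for other intervals. Its sign turned without control WT 2 for all (−0.11) and other intervals (−0.63), and for other intervals without control WT 4 (−0.22) or control KO 4 (−0.13).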
